A study of Mus musculus with 12 samples.

Results

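The complement components and regulators described here are 9 genes, C3, C4b, C2, Cfb, C1ra, C3ar1, C5ar1, Serping1 and Cd55, taken by symbol from a table of 24532 genes. They were measured by bulk RNA sequencing in 12 libraries of mouse ear skin. Mice were germ-free (GF), that is, raised without microbes, or specific-pathogen-free (SPF). Ears were treated with the vehicle ethanol or with MC903. MC903, or calcipotriol, is an analogue of vitamin D and inflames mouse skin when applied to it. The labels name 5 applications in a wording that does not settle the interval. Each of the 4 groups held 3 libraries, numbered 1, 2 and 3 for SPF and 1, 4 and 5 for GF. The strain label reads C57BL/6 in 9 libraries and C57BL/7, C57BL/8 and C57BL/9 in GF MC903 4, GF ethanol 5 and GF MC903 5. No genetic change is given for any group, and neither age nor sex is among the labels used here. Nothing in the labels says that replicates came from separate mice, so a p-value here reflects how much these libraries vary.

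Complement is a cascade of proteases and opsonins that marks and lyses microbes and damaged cells. In the classical route the C1 complex, with its protease C1r, cleaves C4 and C2, whose fragments form an enzyme that cleaves C3. In the alternative route factor B does the work of C2. Cleavage of C3 and C5 releases the peptides C3a and C5a, which act on leukocytes through the receptors C3aR and C5aR1. The C1 inhibitor, made from Serping1, blocks C1r and C1s, and the membrane protein CD55 takes the C3-cleaving enzymes apart. The liver makes most circulating complement, but keratinocytes, fibroblasts and macrophages of skin also express parts of it.

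C3 and C5ar1 were the members called in the test of the difference between the SPF and GF responses to MC903, a call that for C5ar1 ended under 13 of 20 alternatives. The bases before their RefSeq starts are therefore shown (RefSeq, GRCm38.p6, 5′ to 3′ along the gene's strand). A RefSeq window was found for 5 of the 9 members. The windows are chr17:57228137-57228386 for C3 and chr7:16259339-16259588 for C5ar1, both on the minus strand and 250 bases long, ending at the base before a RefSeq start. For C5ar1 and Cd55 the RefSeq gene spans, whose coordinates are given below, begin upstream of the start used for the window. Most of the C5ar1 window and all of the Cd55 window therefore lie inside those gene spans. Capitals mark matches, on either strand, to 4 searched patterns.
C3: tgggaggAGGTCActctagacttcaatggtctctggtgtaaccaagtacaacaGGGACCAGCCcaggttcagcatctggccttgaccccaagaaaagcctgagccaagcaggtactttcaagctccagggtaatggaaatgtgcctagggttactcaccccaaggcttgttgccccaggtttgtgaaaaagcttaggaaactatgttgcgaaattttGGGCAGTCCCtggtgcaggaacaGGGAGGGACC
C5ar1: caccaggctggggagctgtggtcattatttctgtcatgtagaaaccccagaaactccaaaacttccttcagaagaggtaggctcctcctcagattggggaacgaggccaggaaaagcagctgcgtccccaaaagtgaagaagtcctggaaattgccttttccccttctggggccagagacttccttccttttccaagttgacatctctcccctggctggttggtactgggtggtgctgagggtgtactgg
The patterns were an NF-kB-like pattern of GGGA and CC separated by any 4 bases, the STAT-like TTCNNNGAA, an interferon response-like pair of GAAA separated by any 2 bases, and the nuclear receptor core AGGTCA. The C3 window held the NF-kB-like letters 3 times, at -197 to -188, -33 to -24 and -10 to -1 from the RefSeq start, and AGGTCA at -243 to -238. None of the 4 patterns was in the windows of C5ar1, C1ra or C3ar1, and the Cd55 window held the NF-kB-like letters at -61 to -52. Over 21969 windows of this length, 19.9% held the NF-kB-like letters, 12.7% AGGTCA, 6.77% the STAT-like and 2.96% the interferon response-like letters. These matches describe the sequence and are not evidence of binding.

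Per library, totals lay between 36358294 and 48225425 estimated counts. Levels are given as CPM, counts relative to library sizes scaled by the TMM method, and comparisons between genes use the authors' FPKM, which is also per length. Differences are log2 fold changes, called at an adjusted p of at most 0.05 in edgeR's quasi-likelihood test with Benjamini-Hochberg adjustment over 16466 genes tested. All 9 members were tested. The scaling matters for the responses to MC903. Relative to TMM scaling, library totals alone shifted the median log2 fold change over all genes by -0.58 in the SPF response and -0.51 in the GF response. The shift was 0.06 for their difference, -0.05 between the ethanol groups and 0.01 between the MC903 groups. The ear skin label was checked against 8 keratinocyte and 8 fibroblast markers. The keratinocyte genes summed to between 22000 and 25100 CPM in SPF ethanol libraries, and the fibroblast genes to between 10100 and 11600 CPM.

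In ethanol-treated SPF skin the most abundant member per length was Serping1, at 90.1 ± 4.4 FPKM (SD, n = 3). C4b followed at 33.8 ± 1.61, C3 at 27.2 ± 1.7 and C1ra at 19.6 ± 1.18 FPKM. Cfb at 11.9 ± 1.4, C2 at 11.4 ± 0.846 and Cd55 at 10.5 ± 0.435 FPKM came next, and these neighbours did not differ beyond their spread. The receptors were lowest, C3ar1 at 2.5 ± 0.474 and C5ar1 at 2.46 ± 0.546 FPKM, and likewise did not differ beyond their spread. In GF ethanol skin Serping1 was again highest, at 119 ± 10.3 FPKM. C3 at 45.2 ± 5.76 and C4b at 43.4 ± 2.42 FPKM were then within their spread of each other.

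**Figure D1:**
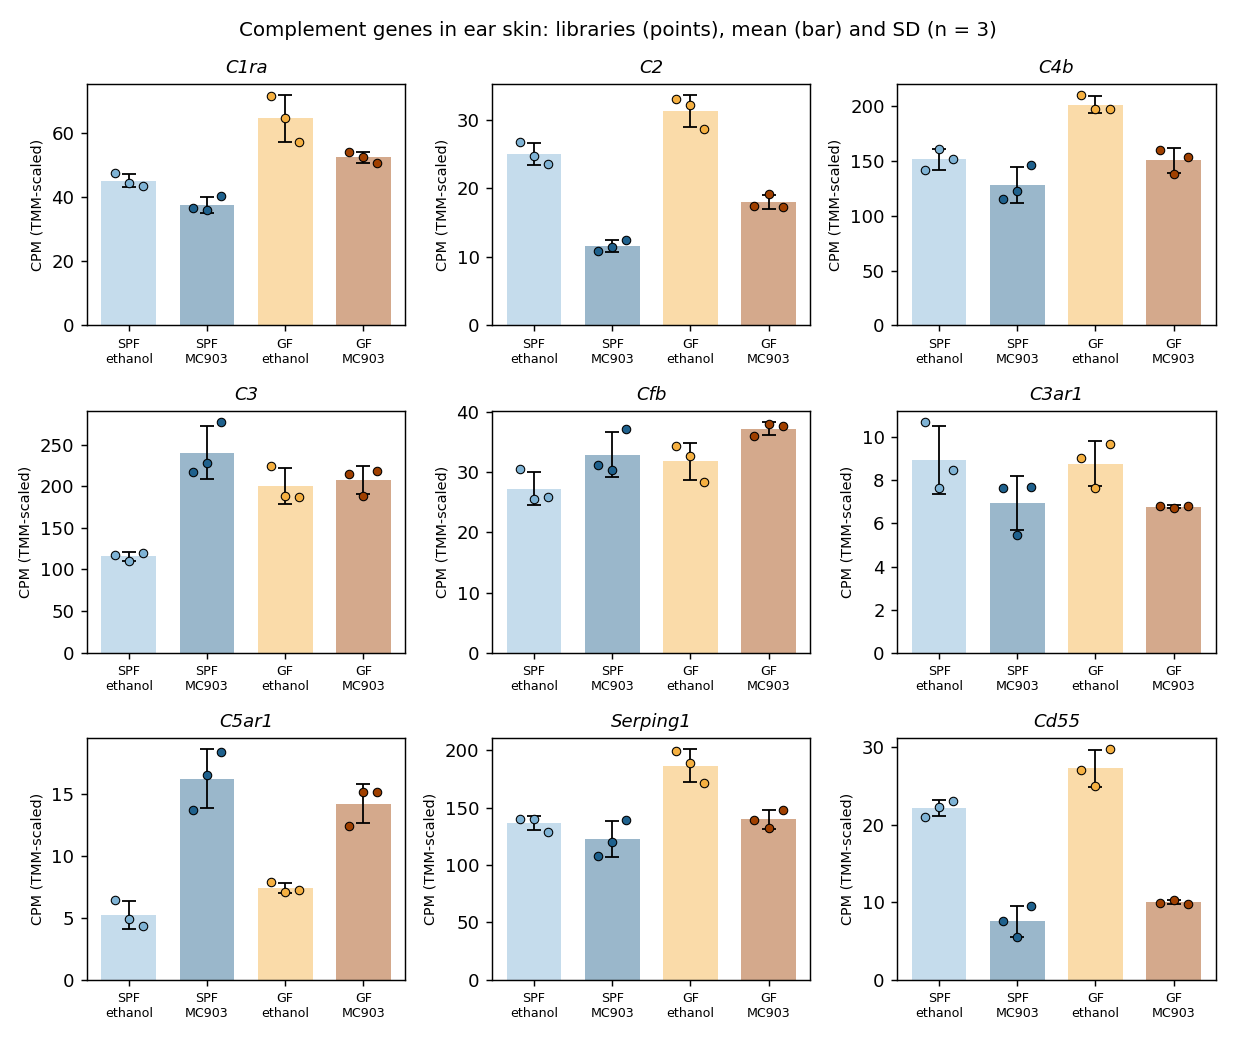
Level of each of the 9 members in CPM (TMM scaling) in the 12 libraries, with points for libraries, the group mean and the SD. C3 lies between 110 and 120 CPM in SPF ethanol skin and between 187 and 277 CPM in the other 3 groups, and Cd55 is lower in each MC903 group than in the ethanol group of the same housing.

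MC903 shifted members in both directions in SPF skin. C3, Cfb and C5ar1 rose, C2, C4b, C1ra and Cd55 fell, and C3ar1 and Serping1 did not pass. The 3 rises stand beside a background in which 35% of all genes tested were called higher, and the 4 falls beside 38.8% called lower. At a change of 2-fold or more, C3 and C5ar1 rose and C2 and Cd55 fell, where 15.6% of all genes were higher and 18.9% lower by that much. In GF skin C5ar1 rose, and C2, C4b, C1ra, Serping1 and Cd55 fell. There the background was 33.4% called higher and 35.1% lower. Only Cd55 of the members passed at 2-fold or more in GF skin, downward, where 12.2% of all genes were higher and 13.1% lower by that much. The median change of the members was -0.25 in SPF and -0.37 in GF skin, against -0.10 and -0.07 over all genes tested, and on library totals C3 in GF skin and Cfb in both housings took the opposite sign.

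C1ra, C2 and C4b belong to the classical route. C2 (gene ID 12263, GRCm38 chromosome 17, 34862602 to 34882100, minus strand) was at 26.7, 24.8 and 23.5 CPM in SPF ethanol 1, 2 and 3, and at 10.9, 11.4 and 12.5 CPM in SPF MC903 1, 2 and 3. GF skin had 33, 32.2 and 28.6 CPM with ethanol and 17.5, 19.2 and 17.3 CPM with MC903. Every MC903 library lay below every ethanol library, and within each treatment the GF libraries lay above the SPF libraries. C2 fell by 1.11 in SPF skin (SE 0.09, adjusted p = 1.7e-07) and by 0.80 in GF skin (SE 0.09, adjusted p = 4.4e-06), and the difference of these falls, 0.31 (95% interval 0.05 to 0.58), did not pass (adjusted p = 0.10). Both falls passed under each of the 21 alternatives run.

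C4b (ID 12268, chromosome 17, 34728139 to 34743902, minus strand), which encodes complement C4 in mice, was at 142, 161 and 152 CPM in SPF ethanol libraries 1, 2 and 3 and at 115, 123 and 146 CPM with MC903. GF skin held it at 210, 197 and 197 CPM with ethanol and 160, 138 and 154 CPM with MC903 in libraries 1, 4 and 5. The groups overlapped in SPF skin and not in GF skin. C4b fell by 0.42 in GF skin (SE 0.09, adjusted p = 0.00098), but with the trend of fold change on gene length removed the change was -0.01 (adjusted p = 0.92). The SPF fall of 0.25 (SE 0.09, adjusted p = 0.023) turned to a rise of 0.24 (adjusted p = 0.023) with that trend removed. It did not pass without SPF MC903 1, SPF ethanol 2 or SPF MC903 2, at -0.18 to -0.22 and adjusted p from 0.073 to 0.10. Nor did it pass with DESeq2's size factors (-0.20, adjusted p = 0.053) or with only the libraries compared (-0.22, adjusted p = 0.064). The difference between the responses, -0.17 (95% interval -0.44 to 0.10), did not pass (adjusted p = 0.38).

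C1ra (ID 50909, chromosome 6, 124512621 to 124523440, plus strand) encodes the protease C1r. Its levels were 47.4, 44.4 and 43.3 CPM in SPF ethanol and 36.4, 35.9 and 40.3 CPM in SPF MC903 libraries. They were 71.5, 64.6 and 57 CPM in GF ethanol and 53.8, 52.5 and 50.4 CPM in GF MC903 libraries. MC903 libraries lay below the ethanol libraries of their housing, and all 6 GF libraries lay above all 6 SPF libraries. C1ra fell by 0.26 in SPF skin (SE 0.09, adjusted p = 0.014) and by 0.30 in GF skin (SE 0.09, adjusted p = 0.0073). The SPF fall did not pass without SPF ethanol 1 (-0.22, adjusted p = 0.057) or SPF MC903 2 (-0.23, adjusted p = 0.0502). C1s1, the gene of the partner protease C1s, lies 6903 bases from C1ra, and its changes of 0.02 and -0.07 did not pass. On library totals C1s1 had -0.55 in SPF skin (adjusted p = 0.0013).

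C3 and Cfb stand at the centre of the alternative route. C3 (ID 12266, chromosome 17, 57203967 to 57228136, minus strand) was at 118, 110 and 120 CPM in SPF ethanol libraries and at 217, 228 and 277 CPM in SPF MC903 libraries. In GF skin it was at 225, 188 and 187 CPM with ethanol and at 215, 188 and 219 CPM with MC903. The SPF ethanol libraries stood below the other 9, and the GF groups overlapped. C3 rose 2.07-fold in SPF skin (log2 change 1.05, SE 0.10, adjusted p = 1.2e-06), and the rise passed under each of 21 alternatives, at 0.48 to 1.51. In GF skin the change was 0.05 (95% interval -0.17 to 0.27, adjusted p = 0.66) under TMM scaling and -0.46 (adjusted p = 0.0022) with scaling by library totals. Removing the length trend gave 0.45 (adjusted p = 0.0011). The response was smaller in GF than in SPF skin by 1.0 on the log2 scale (SE 0.14, 95% interval of the difference -1.31 to -0.69, adjusted p = 8e-04). That difference passed under each of 20 alternatives, at -1.07 to -0.89, with an adjusted p of at most 0.0032.

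Cfb (ID 14962, chromosome 17, 34856374 to 34862514, minus strand) encodes factor B and lies 87 bases from C2. It was at 30.5, 25.5 and 25.9 CPM in SPF ethanol and 31.2, 30.3 and 37.2 CPM in SPF MC903 libraries. Its GF levels were 34.4, 32.7 and 28.3 CPM with ethanol and 36, 38 and 37.7 CPM with MC903. The SPF groups overlapped and the GF groups did not. Cfb rose by 0.27 in SPF skin under TMM scaling (SE 0.10, adjusted p = 0.031) and had -0.31 (adjusted p = 0.023) on library totals. Without SPF ethanol 2, SPF ethanol 3 or SPF MC903 3 the SPF change was 0.17 to 0.23 and did not pass (adjusted p from 0.097 to 0.14). The GF change was 0.23 (adjusted p = 0.067), with -0.29 (adjusted p = 0.034) on library totals. It passed, as a rise, under 6 of 21 alternatives. These were DESeq2 (adjusted p = 0.038), its size factors (0.0496), only the libraries compared (0.039), the length trend removed (0.021), and leaving out SPF MC903 3 (0.23, adjusted p = 0.041) or GF ethanol 1 (0.29, adjusted p = 0.046).

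**Figure D2:**
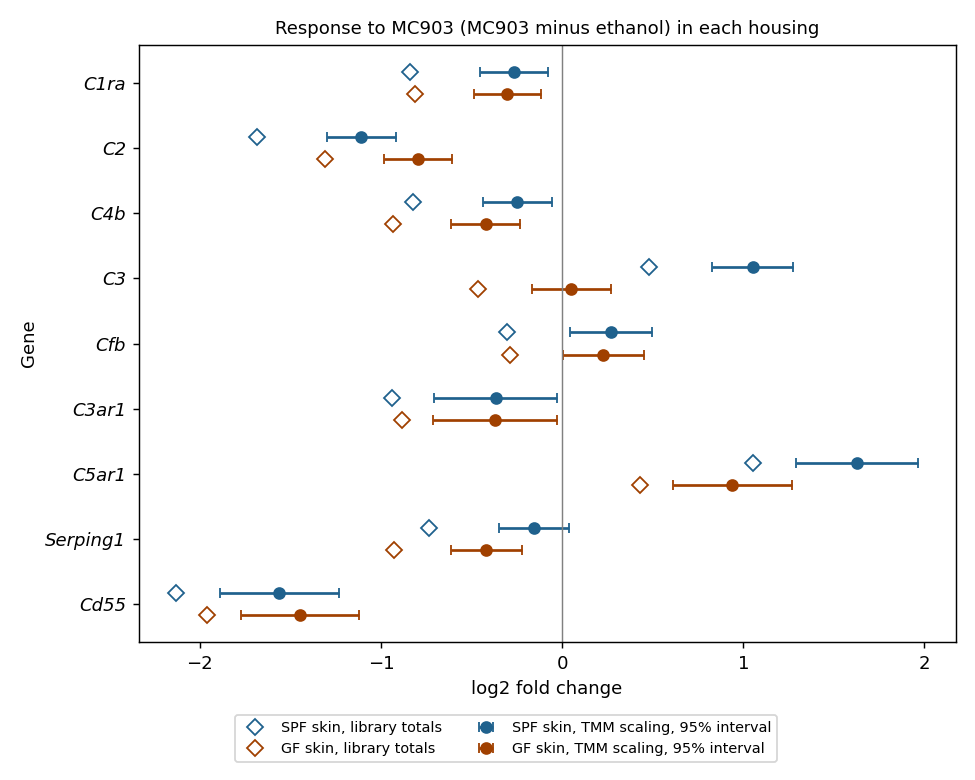
log2 fold change of each member with MC903 in SPF and in GF skin under TMM scaling, with 95% intervals, and on library totals (open diamonds). C3 has 1.05 in SPF and 0.05 in GF skin under TMM scaling, and on library totals C3 in GF skin (-0.46) and Cfb in both housings (-0.31 and -0.29) have the opposite sign.

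Ratios of 2 members within a library do not depend on the scaling. They were chosen after the values were seen. C2 per Cfb, neighbours that serve the classical and the alternative enzyme, was 0.918 ± 0.0499 in SPF ethanol and 0.353 ± 0.0215 in SPF MC903 libraries (SD, n = 3). In GF skin it was 0.985 ± 0.0252 with ethanol and 0.483 ± 0.0232 with MC903. All 6 MC903 libraries lay below all 6 ethanol libraries. C3 per C4b rose from 0.768 ± 0.0787 to 1.88 ± 0.0196 in SPF and from 0.991 ± 0.0701 to 1.38 ± 0.0423 in GF skin, again with no overlap between treatments. Each of these 4 comparisons gave an exact two-sided permutation p of 0.1, the smallest that 3 libraries against 3 allow, so none could pass 0.05. A readthrough model, Gm20547, spans C2 and Cfb, and Zbtb12 overlaps C2 on the opposite strand, so reads of these models cannot be separated here.

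**Figure D3:**
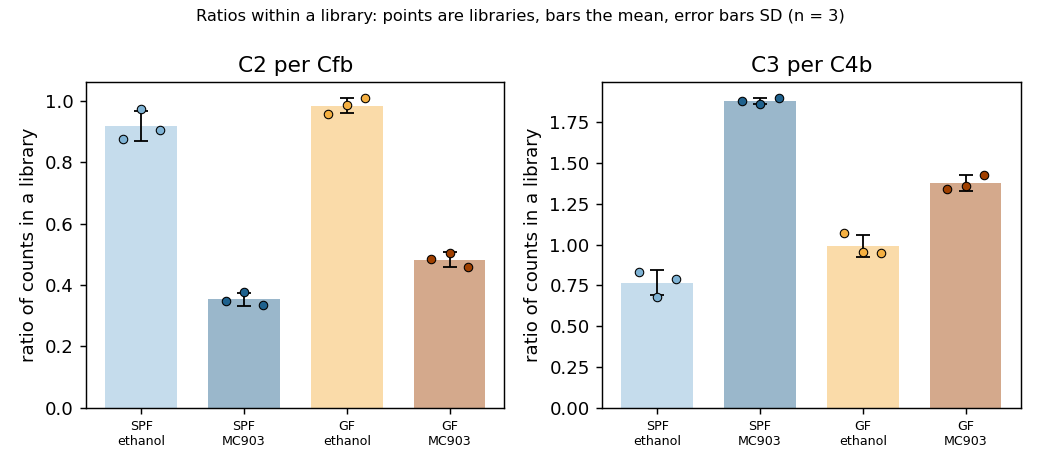
Ratio of estimated counts of 2 genes within each library, C2 per Cfb and C3 per C4b, with points for libraries, bars for the mean of 3 and error bars for the SD. C2 per Cfb is lower and C3 per C4b higher with MC903 in both housings.

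Of the anaphylatoxin receptors, C5ar1 (ID 12273, chromosome 7, 16246743 to 16259540, minus strand) changed most. This receptor for C5a on neutrophils and macrophages was at 6.44, 4.91 and 4.32 CPM in SPF ethanol and 13.7, 16.5 and 18.4 CPM in SPF MC903 libraries. In GF skin it was at 7.86, 7.06 and 7.24 CPM with ethanol and 12.4, 15.1 and 15.1 CPM with MC903. The treatments did not overlap in either housing. C5ar1 rose 3.09-fold in SPF skin (log2 change 1.63, SE 0.15, adjusted p = 9.4e-07) and 1.92-fold in GF skin (0.94, SE 0.15, adjusted p = 0.00013), and both rises passed under each of 21 alternatives. The response was smaller in GF skin by 0.69 (SE 0.21, 95% interval of the difference -1.16 to -0.22, adjusted p = 0.046). That call ended under 13 of 20 alternatives, among them leaving out any 1 library other than SPF ethanol 1 or SPF MC903 1, at -0.57 to -0.74 with adjusted p from 0.059 to 0.10. Hc, the gene of C5 itself, was at 0.209 ± 0.0781 CPM in SPF ethanol and 0.151 ± 0.18 CPM in SPF MC903 skin, and its changes did not pass.

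C3ar1 (ID 12267, chromosome 6, 122847140 to 122856157, minus strand), the receptor for C3a, was at 10.7, 7.67 and 8.48 CPM in SPF ethanol and 7.67, 5.48 and 7.7 CPM in SPF MC903 libraries. In GF skin it was at 9.02, 7.63 and 9.68 CPM with ethanol and 6.81, 6.73 and 6.82 CPM with MC903. The groups overlapped in SPF skin and not in GF skin. Its changes of -0.37 in each housing missed the threshold (SE 0.16 in both, adjusted p = 0.0502 in SPF and 0.051 in GF skin). They passed without SPF MC903 1, SPF ethanol 2 or SPF MC903 3 in SPF skin (-0.44 to -0.46, adjusted p from 0.026 to 0.042). In GF skin they passed without SPF ethanol 1, SPF ethanol 2, SPF MC903 2 or GF ethanol 4 (-0.37 to -0.45, adjusted p from 0.026 to 0.046). In all, the C3ar1 change passed under 7 of 21 alternatives in SPF skin and 9 of 21 in GF skin. Over the 21 it ran from -0.94 to -0.02 in SPF skin (adjusted p up to 0.91). The GF change ran from -0.88 to -0.06 (adjusted p up to 0.71). The largest fall in each housing was on library totals.

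Macrophage and monocyte markers summed to between 566 and 634 CPM in SPF ethanol, 725 and 825 in SPF MC903, 603 and 656 in GF ethanol and 745 and 793 CPM in GF MC903 libraries. Of the 12 markers, 8 rose and 3 fell in SPF skin, and 7 rose and 3 fell in GF skin. Csf1r, Cd163 and Mertk were the falls in both. Neutrophil markers summed to between 6.45 and 8.3, 64.2 and 67.4, 4.87 and 9.89 and 78.1 and 138 CPM in the same order, and with MC903 most of it came from S100a8 and S100a9, which keratinocytes also make. Of the 12 neutrophil markers 7 were tested, of which 4 rose and 1 fell in SPF skin, and 6 rose and 0 fell in GF skin. Ly6g, which defines neutrophils, was too low to test, with 3 counts over all libraries, all in GF MC903 skin. The part of these cells in the C5ar1 and C3ar1 values was not tested. In bulk tissue, fewer cells of a type and less RNA per cell cannot be told apart.

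Serping1 (ID 12258, chromosome 2, 84765360 to 84775444, minus strand), the C1 inhibitor gene, was at 140, 140 and 129 CPM in SPF ethanol and 108, 120 and 139 CPM in SPF MC903 libraries. GF libraries had 199, 189 and 171 CPM with ethanol and 139, 132 and 148 CPM with MC903. The GF groups were apart and the SPF groups overlapped through SPF MC903 3. Serping1 fell by 0.42 in GF skin (SE 0.09, adjusted p = 0.0012), and its SPF change was -0.16 (adjusted p = 0.13). The SPF fall passed without SPF MC903 3 (-0.25, adjusted p = 0.018) and with the length trend removed (-0.30, adjusted p = 0.0093). It also passed on library totals (-0.73, adjusted p = 1.1e-05). The difference of -0.26 (95% interval -0.54 to 0.01) did not pass (adjusted p = 0.19), so the responses are not shown to differ.

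Cd55 (ID 13136, chromosome 1, 130429798 to 130465009, minus strand), whose product shortens the life of the C3-cleaving enzymes, had the largest fall among the members in both housings. It was at 21, 22.3 and 23.1 CPM in SPF ethanol and 7.59, 5.48 and 9.51 CPM in SPF MC903 libraries. GF levels were 27.1, 25 and 29.7 CPM with ethanol and 9.94, 10.3 and 9.8 CPM with MC903. No MC903 library reached any ethanol library. Cd55 was 2.95-fold lower in SPF skin (log2 change -1.56, SE 0.15, adjusted p = 1.2e-06) and 2.73-fold lower in GF skin (-1.45, SE 0.15, adjusted p = 3e-06). Both falls passed under each of 22 alternatives, and their difference was 0.11 (95% interval -0.34 to 0.57, adjusted p = 0.77). Gene model Gm15675 overlaps Cd55 on the same strand, and Gm15674 and Gm16083 overlap it on the opposite strand. Whether counting used strand is not given in the sources used here.

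Fibroblast markers, which mark one source of complement in skin, summed to between 10100 and 11600 CPM in SPF ethanol, 5270 and 6690 in SPF MC903, 8190 and 9930 in GF ethanol and 5010 and 6260 CPM in GF MC903 libraries, with 7 of 8 lower in each response. Keratinocyte markers summed to between 46100 and 56100 CPM in SPF MC903 and between 57300 and 58600 CPM in GF MC903 libraries, from 22000 to 25100 and 25600 to 29100 CPM with ethanol. Singly they were split, with 4 higher and 3 lower of 8 in SPF skin and 5 higher and 1 lower in GF skin. Endothelial markers fell in 5 of 7 cases in SPF skin and 6 of 7 in GF skin. T cell markers fell in 6 of 6 tested cases in SPF skin and 2 of 6 in GF skin. Of the adipocyte markers 4 of 6 fell in each housing. Mast cell markers split, with 3 higher and 2 lower of 7 in each. Their part in the falls of C2, C4b, C1ra, Serping1 and Cd55 was not tested.

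Between housings, the members called were all higher in GF skin. With ethanol, 6 of 9 were called higher and 0 lower, beside 11.6% of all genes called higher and 10.3% lower. These were C3, C1ra, C5ar1, Serping1, C4b and C2. C3 was 1.72-fold higher (log2 difference 0.79, SE 0.10, adjusted p = 0.00086), C1ra had 0.52 (SE 0.09, adjusted p = 0.0028), Serping1 0.45 (SE 0.09, adjusted p = 0.0059) and C4b 0.41 (SE 0.09, adjusted p = 0.0084). For these 4 genes the call held under every alternative run. C5ar1 had 0.50 (adjusted p = 0.037) and C2 0.32 (adjusted p = 0.018). The C5ar1 call ended without SPF ethanol 2, SPF ethanol 3 or any 1 GF ethanol library (0.38 to 0.52, adjusted p from 0.065 to 0.13). It also ended on library totals (0.45, adjusted p = 0.067) and with the length trend removed (0.47, adjusted p = 0.061). The C2 call ended without SPF ethanol 2, SPF ethanol 3, GF ethanol 1 or GF ethanol 4 (0.28 to 0.32, adjusted p from 0.056 to 0.081). Cd55 (0.30, adjusted p = 0.15), Cfb (0.22, adjusted p = 0.14) and C3ar1 (-0.03, 95% interval -0.36 to 0.31, adjusted p = 0.92) did not pass. Cd55 passed without SPF MC903 2 (0.30, adjusted p = 0.037) and with only the libraries compared (0.30, adjusted p = 0.027).

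With MC903, 4 of 9 members were called higher in GF skin and 0 lower, beside 20.8% and 20.9% of all genes. C2 (0.64, SE 0.09, adjusted p = 0.00013) and C1ra (0.48, SE 0.09, adjusted p = 0.00082) passed under every alternative. C4b (0.24, adjusted p = 0.048) and Cd55 (0.42, adjusted p = 0.045) lost the call under 15 and 16 of 21 alternatives. Those included leaving out any 1 library other than SPF MC903 3 or GF MC903 4 for C4b (0.17 to 0.24, adjusted p from 0.051 to 0.18) and any 1 other than SPF MC903 3 for Cd55 (0.23 to 0.43, adjusted p from 0.053 to 0.12). C3, higher in GF skin with ethanol, had -0.22 (95% interval -0.44 to 0.01, adjusted p = 0.11), and C5ar1 had -0.19 (adjusted p = 0.34). Serping1 had 0.19 (adjusted p = 0.11), and 0.29 (adjusted p = 0.021) without SPF MC903 3. Cfb had 0.18 (adjusted p = 0.19) and C3ar1 -0.03 (adjusted p = 0.89). The 2 members called in the difference between the responses, C3 and C5ar1, were both lower, beside 9.26% of all genes called lower and 7.75% higher. The comparisons of responses and of housings use the same 4 groups, so their values are not independent.

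**Figure D4:**
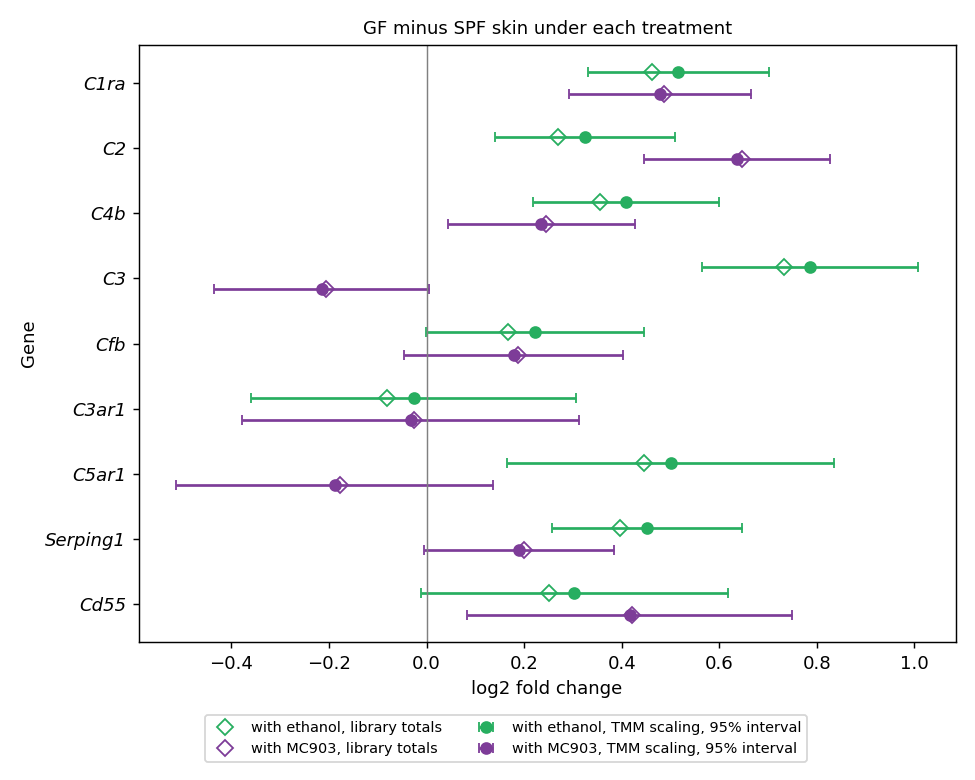
log2 difference of each member, GF minus SPF, with ethanol and with MC903 under TMM scaling, with 95% intervals, and on library totals (open diamonds). The ethanol difference is largest for C3 (0.79) and the MC903 difference for C2 (0.64).

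Among profiles centred on their own mean over the 12 libraries, C4b and Serping1 were nearest to each other of all genes tested, with a root mean square difference of 0.0762 in log2 CPM. C1ra was the next member to them, at 0.126 from Serping1 and 0.139 from C4b. The nearest gene to C2 was Dpt at 0.0806, to Cd55 Hspa2 at 0.104, to C5ar1 Capg at 0.165 and to C3 Fbln1 at 0.178. The nearest to Cfb was Slc7a7 at 0.0849, to C1ra Cryl1 at 0.095 and to C3ar1 S1pr2 at 0.111. The most unlike members were C5ar1 and Cd55, at 1.44. Genes with a flat profile lie near each other by this measure, so the distances are a description.

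A list of 51 other complement genes held 34 that were tested. In SPF skin 10 rose and 13 fell, with a median change of -0.12, and in GF skin 11 rose and 12 fell, with a median of -0.22. Over all genes tested 35% rose and 38.8% fell in SPF skin, and 33.4% and 35.1% in GF skin, so the list's shares lie near the background. On library totals the counts were 7 rises and 19 falls in SPF skin, and 6 and 18 in GF skin. With that scaling 3127 of all 16466 genes tested rose and 10106 fell in SPF skin, and 2795 rose and 9697 fell in GF skin. Properdin, which stabilises the alternative enzyme, rose as Cfp by 1.78 in SPF and 1.85 in GF skin (adjusted p = 2.8e-09 and 6e-09), from 19.5 ± 1.96 to 66.9 ± 1.97 CPM in SPF libraries. The C1q gene C1qa, of the recognition subunit of C1, rose by 1.32 and 1.31 (adjusted p = 9e-07 and 1.4e-06). The other C1q genes rose less. C1qb rose by 1.22 and 1.03 (adjusted p = 1.3e-06 and 7.4e-06), and C1qc by 0.73 and 0.88 (adjusted p = 0.00015 and 3.8e-05). The SPF call of C1qc ended under 1 of 21 alternatives (adjusted p = 0.28). Cd59a, whose product blocks the lytic pore, fell by 1.25 and 0.77 (adjusted p = 1.2e-07 and 1.1e-05), and Susd4 by 2.27 and 2.12. For Cfp, C1qa, C1qb, Cd59a and Susd4 the direction and the call held under every alternative run. Cr1l, the gene of the rodent regulator Crry, rose by 0.75 in SPF skin and by 0.27 in GF skin (adjusted p = 3.5e-07 and 0.0025), the latter with -0.25 (adjusted p = 0.0027) on library totals.

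The difference between the responses was called in 6 of these 34 genes, 2 higher and 4 lower, beside 7.75% and 9.26% of all genes, and this share too is near the background. Clu, the pore inhibitor clusterin, was higher by 0.96 (adjusted p = 0.0011). Its changes were -0.35 in SPF and 0.61 in GF skin, the latter at 0.10 and not passed (adjusted p = 0.30) on library totals. Itgam, of the receptor CR3 on myeloid cells, was lower by 0.93 on the log2 scale (difference -0.93, adjusted p = 0.006), and Cr1l had -0.48 (adjusted p = 0.0036). These 3 calls held under each of 20 alternatives. The calls for Cd59a (0.48), Cd59b (-3.27) and C1qbp (-0.37) ended under 8, 11 and 12 alternatives. Cd59b was near the floor, at 7, 0 and 0 counts in GF MC903 1, 4 and 5. Its difference ran from -7.86 to -2.7 with 1 library left out, so its size is poorly determined. Between housings with ethanol, 7 were higher in GF skin and 1 lower, beside 11.6% and 10.3% of all genes. With MC903 10 were higher and 5 lower, beside 20.8% and 20.9%. C1s1 was higher in GF skin under both treatments (0.75 and 0.66, adjusted p = 0.0021 and 0.00072). Cfd, the gene of factor D, which activates factor B and which fat tissue also makes, was at 13.3 ± 5.48 CPM in SPF and 40 ± 9.18 CPM in GF ethanol skin (1.58, adjusted p = 0.017). That call ended without SPF ethanol 1 (1.28, adjusted p = 0.054) or GF ethanol 4 (1.44, adjusted p = 0.072).

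**Figure D5:**
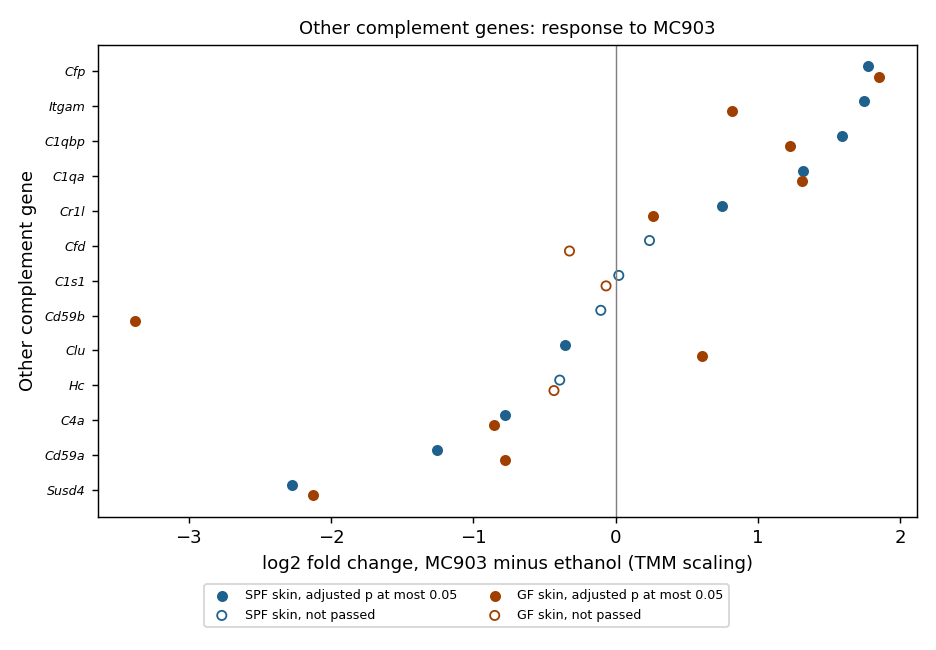
log2 fold change (x axis) with MC903 in SPF and GF skin under TMM scaling for 13 of the tested genes of the complement list that the text names (y axis), filled where the adjusted p is at most 0.05 and open where it is not. Cfp lies at 1.78 and 1.85 and Cd59a at -1.25 and -0.77, and on library totals Cr1l in GF skin takes the opposite sign (-0.25).

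Copies of 3 members could share reads. C4b and C4a share 35.2% of the 50-base windows of the C4b transcript, C1ra and C1rb 48%, and Cd55 and Cd55b 13.3%. The copies held 1657, 274 and 8 estimated counts over the 12 libraries, against 82518, 25959 and 9258 for the members. Summing each pair ended the C4b call between housings with MC903 (0.23, adjusted p = 0.059) and no other call of these 3 members. The liver-type components C8a and Mbl1 were at 0 in every library, and Cfi and C6 at 10 and 31 counts in all, too few to test. Other genes of the list had enough counts to be tested. In SPF ethanol 1, 2 and 3, C8g had 81, 75 and 107 counts, C9 38, 42 and 64, and Masp1 217, 229 and 253.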

How the data were processed

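Per the labels' protocols, RNA of fresh ear skin came from a kit for fibrous tissue and was sequenced on a HiSeq4000 after TruSeq library preparation. HISAT2 2.1.0, StringTie 1.3.4d, Trimmomatic and bcl2fastq 2.20.0, with the mm10 build, are named in the submitters' processing notes. Which annotation was used, whether counting used strand, and how each tool was set are not given in the sources. Per the file headers, the authors deposited an estimated count per gene and library, in whole numbers, and an FPKM value. The deposited counts were tested as they stand, and the authors' FPKM served to compare genes.

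edgeR 4.0.16 (R 4.3.3) fitted all 12 libraries at once, with TMM scaling, a coefficient for each group and the quasi-likelihood test, on genes kept by its expression filter (minimum count 10, minimum total 15). Of 24532 genes 16466 were tested, 8066 were not, and 4221 of the latter were at 0 throughout. The common dispersion was 0.0218. Replicates differed by more than sampling noise (chi-square per degree of freedom 17.9 to 47.2 in 12 pairs), so each library counted once. Deviations of same-numbered libraries had correlations between -0.02 and 0.14, and those of different-numbered libraries of a housing between -0.13 and 0.06. For SPF 2, SPF 3 and, narrowly, GF 1 the correlation was highest with the same number. These few small values do not settle whether a number marks a pair, and no pairing was used in the main fit. Alternatives were DESeq2 1.42.0, limma 3.58.1 (voom), DESeq2's size factors, library totals, no filter, a minimum count of 50, the trend on gene length removed, only the libraries compared, a replicate block, close copies summed, and each library left out.

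The members, gene lists and tests were chosen with earlier results of these data known. All members are described. Other complement genes could be named if among the 6 largest called changes of a comparison or if close partners of a member, and the nearest profiles were taken by rank. C1qbp, Clu and Itgam entered under the first part. C1qb, C1qc, C8a, C8g, C9, Masp1, Mbl1, Cfi and C6, and the cell markers named singly, were chosen after their values were seen. Gene coordinates are from RefSeq, and strands and overlapping gene models from GENCODE, both on GRCm38, the same build as mm10. Gene identifiers matched RefSeq for 24462 of 24532 genes. Some genes of the complement list are not reported singly here.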

Additional observations from a re-analysis of the deposited data

Results flagged for a closer look

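Results that differed between housings under the same contrast were those of 2 of 9 members, both lower in GF skin, beside 9.26% of all genes called lower and 7.75% higher. The C3 response to MC903 was lower in GF than in SPF skin by a log2 difference of -1.0 (SE 0.14, edgeR adjusted p = 8e-04). The SPF mean went from 116 ± 5.51 to 241 ± 31.7 CPM and the GF mean from 200 ± 21.7 to 207 ± 17 CPM (SD, n = 3). The C5ar1 response was lower by -0.69 (SE 0.21, adjusted p = 0.046), with SPF means of 5.22 ± 1.1 and 16.2 ± 2.34 CPM and GF means of 7.39 ± 0.421 and 14.2 ± 1.56 CPM. The C3 call held under each of 20 alternatives and the C5ar1 call ended under 13 of 20. Groups of 3 libraries are too small to test for single outlying libraries.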

How the results depend on the processing

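Over 45 results for single members, 29 kept their side of the threshold under every alternative run. Of these, 16 were called, and they also kept their direction. Results that were not called could change sign and still count as kept, as C3ar1 did between the ethanol groups (-0.12 to 0.12). Of all member values under alternatives, 833 counted as kept, 67 lost the call, 29 gained it and 4 reversed. Reversed means a change of sign with a call in the main fit, the alternative or both. On library totals the reversals were Cfb in SPF (-0.31) and GF skin (-0.29) and C3 in GF skin (-0.46), and with the length trend removed C4b in SPF skin (0.24). Library totals move all genes, and why the length trend bears on C4b was not tested. Among other complement genes, C1s1 in SPF skin (-0.55) and Cr1l in GF skin (-0.25) reversed on library totals. Of the members, 1 rather than 2 was called in the difference between the responses on library totals, without a filter and with the replicate block, and 1 to 2 with 1 library left out. Between the MC903 groups 2 rather than 4 were called with DESeq2's size factors, without a filter and with only the libraries compared, and 2 to 5 with 1 library left out. Between the ethanol groups 3616 genes were called, 2137 with the length trend removed and 1475 to 3981 with 1 library left out, with 1475 without GF ethanol 4. The cause of these moves was not tested. With the replicate block, 7 members were called in each response and 1 in the difference, where 2303 rather than 2800 genes passed. C5ar1 then had -0.70 (adjusted p = 0.11), Cfb in SPF skin 0.27 (adjusted p = 0.052) and C3ar1 adjusted p of 0.02 and 0.022 in SPF and GF skin. The numbers are not known to mark shared mice, so the block does not replace the unpaired fit. Of the members, C5ar1 and C3ar1 had few counts, from 213 to 640 per library, and Cd55 had 213 to 370 in the MC903 libraries. Such low counts limit the precision of these values.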
